A study of Mus musculus with 8 samples.

Results

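Genes of adult hippocampal neurogenesis and cell division were followed in hippocampal RNA-seq counts: Dcx, Sox11, Sox4, Igfbpl1, Neurod1, Eomes, Mki67, Top2a, Nes and Tubb2b. They were chosen by name as genes of stem cells, cycling cells and immature neurons of the dentate gyrus; the rule uses no measured value, but the choice was made with earlier results of these data known. All 10 were found among the 46078 entries of the count table, and all 10 were among the 15859 genes with enough counts to be tested. The study compared 4 libraries of wild-type mice (WT) with 4 libraries of mice hemizygous (Cre+/-) for Tg(Camk2a-cre)2Gsc, a transgene also called CamiCre, at 9 weeks of age on the C57BL/6J strain. In this line regulatory DNA of Camk2a drives Cre recombinase mainly in excitatory neurons of the forebrain, and no floxed allele is named in the labels of either group. The labels do not state that the libraries come from separate animals, so p-values measure the spread between libraries, which may be technical.

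In the adult dentate gyrus, radial glia-like stem cells give rise to dividing intermediate progenitors, which become neuroblasts and then immature granule neurons. Nes marks the stem cells, Eomes and Neurod1 follow in the neuronal lineage, and Dcx, Sox4, Sox11, Igfbpl1 and Tubb2b accompany neuronal differentiation. Mki67 and Top2a are made in cycling cells of any type, so in whole hippocampus they also report dividing glia and vascular cells. Bulk tissue cannot tell apart a smaller number of such cells and less RNA in each cell.

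No gene of the set passed the threshold in Cre against WT. The count was 0 of 10 at an adjusted p under 0.05 (quasi-likelihood test of edgeR, Benjamini-Hochberg over all genes), where 5 of the 15859 genes tested (0.0315%) passed. At an unadjusted p under 0.05 the count was also 0 of 10, against 555 (3.5%) of all genes tested, and 0 of 10 genes had groups that did not overlap, against 2.31% of all genes. DESeq2 and limma voom each called 0 of the 10 genes as well. The estimated log2 fold change, Cre over WT, was above 0 for 9 of the 10 genes, with Nes the exception at -0.01. Its median over the 10 genes was 0.07, beside 0.0004 over all genes tested, of which 50.2% lay above 0.

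**Figure D1:**
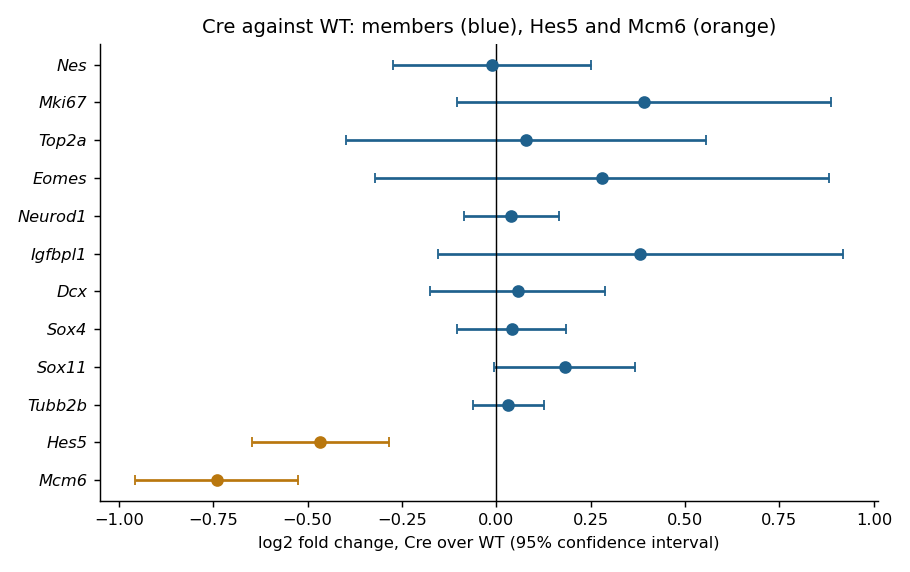
Log2 fold change, Cre over WT (x axis), of the 10 genes in blue and of Hes5 and Mcm6, from the wider lists, in orange. Points are edgeR estimates and bars are 95% confidence intervals over 4 libraries a group. The intervals of all 10 genes include 0, and those of Tubb2b and Neurod1 are the narrowest among them.

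The intervals give the range of changes compatible with these 8 libraries. For Tubb2b the 95% confidence interval of the change in Cre ran from -4.25% to 9.09%, and for Neurod1 from -5.83% to 12.3%. Sox11, with the smallest unadjusted p of the set, had an interval of -0.44% to 29.0%. That of Sox4 ran from -6.89% to 13.6%, that of Dcx from -11.4% to 22.1% and that of Nes from -17.3% to 19.0%. For the rare transcripts the limits were wider. The interval reached from -6.96% to 84.9% for Mki67, from -10.2% to 88.8% for Igfbpl1, from -19.9% to 84.3% for Eomes and from -24.1% to 46.8% for Top2a.

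Levels were compared between genes as normalised counts (CPM, counts scaled to the size of each library) per kilobase of annotated exon, averaged over the 8 libraries. On that scale Tubb2b stood at 87.3, followed by Neurod1 at 8.82, Sox4 at 7.02 and Sox11 at 3.1, and the range of each over the libraries lay above that of its lower neighbour. Nes at 1.98, Dcx at 1.68 and Igfbpl1 at 1.09 formed the next level. The ranges of Nes and Dcx overlapped, as did those of Dcx and Igfbpl1. Top2a at 0.180, Mki67 at 0.160 and Eomes at 0.135 were the lowest, and their neighbouring ranges overlapped. The exon length was the union of all annotated exons, which understates the level per kilobase of a gene whose longer forms are little used in hippocampus.

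**Figure D2:**
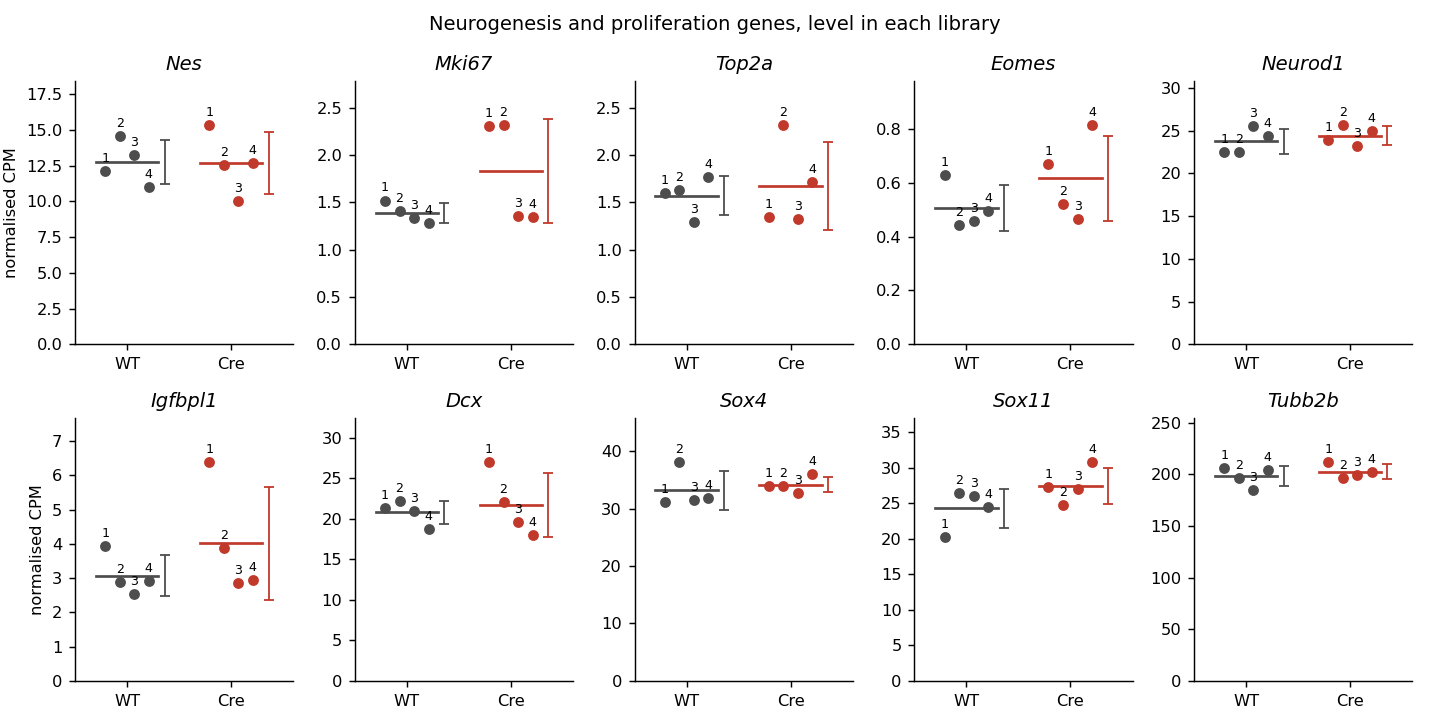
Level of each gene in each library, in normalised CPM from 0 on a linear y axis that differs between panels. Points are libraries with their replicate number, the horizontal line is the group mean and the side bar is the mean ± SD over 4 libraries. WT and Cre overlap in every panel, and Cre replicate 1 is the highest of the 8 libraries for Nes, Igfbpl1, Dcx and Tubb2b.

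Nes, on chromosome 3 at 87971078 to 87980451 of GRCm38, encodes nestin, an intermediate filament protein of neural stem cells that endothelial cells can also make. It gave 12.1, 14.6, 13.2 and 10.99 CPM in WT replicates 1 to 4 and 15.4, 12.6, 10.05 and 12.7 in Cre replicates 1 to 4. The highest and the lowest library were both Cre, and the groups overlapped throughout. The log2 fold change was -0.01 (SE 0.12, 95% interval -0.27 to 0.25), with an exact permutation p of 0.886 (2-sided, n = 4 each, smallest possible p 0.0286).

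Mki67, on chromosome 7 at 135689784 to 135716361, encodes Ki-67, a nuclear protein of cycling cells that coats mitotic chromosomes. Top2a, on chromosome 11 at 98992943 to 99024189, encodes the DNA topoisomerase that untangles replicated chromosomes. The 250 bases upstream of the start site of each gene (RefSeq, build GRCm38.p6, minus strand) are shown because these promoters hold the 2 motifs commonly found at genes of late cell cycle, in capitals: TTTGAA, the core of the cell cycle homology region, and CCAAT, each on either strand (TTCAAA and ATTGG on the other), and none of the matches overlap.
Mki67, chr7:135716380-135716629: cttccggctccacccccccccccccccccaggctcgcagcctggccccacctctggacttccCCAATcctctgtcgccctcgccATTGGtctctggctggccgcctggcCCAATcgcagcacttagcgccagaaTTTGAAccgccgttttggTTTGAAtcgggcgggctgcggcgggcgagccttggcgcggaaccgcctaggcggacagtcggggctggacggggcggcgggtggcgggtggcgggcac
Top2a, chr11:99024190-99024439: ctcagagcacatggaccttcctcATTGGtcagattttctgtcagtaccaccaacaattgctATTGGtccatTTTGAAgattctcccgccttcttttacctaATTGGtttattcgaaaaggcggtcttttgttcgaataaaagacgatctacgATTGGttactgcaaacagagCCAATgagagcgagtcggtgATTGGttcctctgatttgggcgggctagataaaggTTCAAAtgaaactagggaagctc
TTTGAA occurred 2 times in each sequence, while CCAAT occurred 3 times for Mki67 and 6 times for Top2a. Of 32851 RefSeq promoter windows of the same length, 16.0% held TTTGAA and 33.8% held CCAAT. A match of letters is a description and shows no binding.

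Mki67 gave 1.52, 1.41, 1.33 and 1.28 CPM in WT replicates 1 to 4 and 2.30, 2.32, 1.36 and 1.35 in Cre. Cre replicates 1 and 2 lay above the other 6 libraries, and Cre replicates 3 and 4 lay within the WT range. Those levels rest on 31 to 55 counts per library. The coefficient of variation was 30.2% among the Cre libraries, where counting alone gives 15.1%, and 7.63% among the WT libraries, where counting gives 16.8%. This gave a log2 fold change of 0.39 (SE 0.23, 95% interval -0.10 to 0.89; edgeR unadjusted p = 0.111, adjusted p = 0.999). It was 0.26 without Cre replicate 1 or Cre replicate 2, and 0.52 without Cre replicate 3.

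Top2a gave 1.59, 1.63, 1.29 and 1.77 CPM in WT and 1.34, 2.32, 1.32 and 1.71 in Cre, from 31 to 49 counts per library. Cre replicate 2 was the highest library, as it was for Mki67, but Cre replicate 1, next to it in Mki67, was among the 3 lowest libraries for Top2a. For Top2a the log2 fold change was 0.08 (SE 0.22, 95% interval -0.40 to 0.55). Over the 8 libraries, with group means subtracted, log2 CPM of Mki67 and Top2a had Pearson's r of 0.30 and Spearman's rho of 0.14 (permutation p = 0.465 and 0.752, adjusted over 45 pairs 0.961 and 0.892). The r was 0.26 without Cre replicates 1 and 2, but with single libraries left out it was 0.73 without Cre replicate 1, 0.06 without Cre replicate 3 and -0.30 without Cre replicate 2, so its sign rests on that library.

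Eomes, on chromosome 9 at 118478212 to 118486132, encodes a T-box transcription factor that defines intermediate progenitors of glutamatergic neurons and is also made by some lymphocytes. It was the lowest of the 10 genes, with 11 to 20 counts per library. Its levels were 0.63, 0.44, 0.46 and 0.49 CPM in WT and 0.67, 0.52, 0.46 and 0.82 in Cre. The highest library was Cre replicate 4, and WT replicate 1 lay above 2 of the Cre libraries. Eomes had a log2 fold change of 0.28 (SE 0.28, 95% interval -0.32 to 0.88), which was 0.12 without Cre replicate 4 and 0.41 without WT replicate 1. Of 8 T and NK cell markers, 0 had enough counts to be tested. Their summed level was 0.037 to 0.408 CPM in WT and 0.245 to 0.465 in Cre, with Ncr1 at 0 counts and Cd3e at 3 counts over all 8 libraries.

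Neurod1, on chromosome 2 at 79452521 to 79456751, encodes a basic helix-loop-helix factor needed for granule neuron formation, and its transcript persists in mature granule neurons. Its levels were 22.6, 22.5, 25.5 and 24.4 CPM in WT and 23.9, 25.7, 23.2 and 24.9 in Cre. The groups overlapped, with a coefficient of variation of 6.12% in WT and 4.52% in Cre, near the 4.06% and 4.11% that counting alone gives. Neurod1 had a log2 fold change of 0.04 (SE 0.06, 95% interval -0.09 to 0.17). The Neurod1 transcript shared 2.05% of its 150-base windows, the length of a read, with Cerkl, which lies on the same strand and gave 82 to 153 counts per library.

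Igfbpl1, on chromosome 4 at 45809468 to 45826923, encodes a secreted protein related to the insulin-like growth factor binding proteins and is a marker of neuroblasts and young granule neurons. It gave 3.93, 2.89, 2.53 and 2.92 CPM in WT and 6.40, 3.88, 2.86 and 2.94 in Cre. Cre replicate 1 stood at 1.99 times the mean of the other Cre libraries, and the remaining 3 Cre libraries lay within the WT range. The coefficient of variation in Cre was 41.2%, against 10.2% from counting alone. The log2 fold change of 0.38 (SE 0.25, 95% interval -0.16 to 0.92; edgeR unadjusted p = 0.149, adjusted p = 0.999) became 0.06 without Cre replicate 1.

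Dcx, on chromosome X at 143855842 to 143933311, encodes doublecortin, a microtubule-binding protein of migrating and immature neurons and the usual label of adult neurogenesis. Its levels were 21.4, 22.2, 20.9 and 18.8 CPM in WT and 27.1, 22.1, 19.6 and 18.0 in Cre. Both the highest and the lowest of the 8 libraries were Cre, so the Cre range enclosed the WT range. Dcx had a log2 fold change of 0.06 (SE 0.11, 95% interval -0.17 to 0.29; exact permutation p = 0.800, 2-sided, n = 4 each). Without Cre replicate 1, whose level was 1.36 times the mean of the other Cre libraries, the estimate was -0.068.

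Sox4 and Sox11 encode group C Sox factors that act together in neuronal differentiation. Sox4, on chromosome 13 at 28948919 to 28953713, gave 31.2, 38.2, 31.4 and 31.9 CPM in WT and 33.9, 33.9, 32.8 and 35.99 in Cre. Without WT replicate 2, the highest of the 8 libraries, every Cre library lay above the other 3 WT libraries, and the log2 fold change was then 0.12 in place of 0.04 (SE 0.07, 95% interval -0.10 to 0.18). Leaving out the library with the highest value favours such a separation. The fit without it gave Sox4 an edgeR unadjusted p of 0.0468 and an adjusted p of 0.999. A long noncoding RNA on the opposite strand, Gm26735, covers 54.6% of the exon bases of Sox4. It was listed with 6 to 9 counts per library, and the strand setting of the counting is not given in the sources used here.

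Sox11, on chromosome 12 at 27334264 to 27342574, gave 20.3, 26.4, 26.0 and 24.4 CPM in WT and 27.3, 24.7, 27.0 and 30.9 in Cre. WT replicate 1 was the lowest library, Cre replicate 4 the highest, and Cre replicate 2 lay below 2 of the WT libraries. The log2 fold change was 0.18 (SE 0.09, 95% interval -0.006 to 0.37; edgeR unadjusted p = 0.0572, adjusted p = 0.999), and the exact permutation p was 0.143 (2-sided, n = 4 each). Without WT replicate 1 the log2 fold change was 0.10 (edgeR unadjusted p = 0.189), and without Cre replicate 4 it was 0.12 (0.175). It was 0.23 without WT replicate 2, 0.22 without WT replicate 3 and 0.23 without Cre replicate 2. Their edgeR unadjusted p was 0.0320, 0.0435 and 0.0277 (adjusted 0.999, 0.999 and 0.996). Without any other single library the unadjusted p stayed above 0.05. With no filter on low counts it was 0.0259 (adjusted 0.891). In the authors' deposited table Sox11 had a log2 fold change of 0.18 and a p of 0.0479, the only one of the 10 genes under 0.05 there, with 1 after Benjamini-Hochberg adjustment over that table. Sox12, the other gene of the group, had a log2 fold change of 0.06 (SE 0.07).

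Tubb2b, on chromosome 13 at 34126748 to 34130466, encodes a beta-tubulin that is abundant in developing neurons. Its neighbour Tubb2a encodes a near-identical protein and is widely made in mature neurons. The coding sequences of both have 1338 bases, of which 47 differ, an identity of 96.5%, and the longest identical run is 551 bases. The stretch of 60 coding bases with the most differences, positions 112 to 171 counted from 1 at the start codon, is shown because reads across it separate the 2 genes; capitals mark the 10 positions that differ (GENCODE M21, GRCm38).
Tubb2b: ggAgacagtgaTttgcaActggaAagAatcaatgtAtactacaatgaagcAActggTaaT
Tubb2a: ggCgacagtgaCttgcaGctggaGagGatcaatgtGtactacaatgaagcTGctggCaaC
Of the 150-base windows of the Tubb2b transcript, 20.1% are found unchanged in Tubb2a or its pseudogene Tubb2a-ps2. Part of the Tubb2b count could therefore be shared with Tubb2a, depending on how the authors' counting treated such reads.

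Tubb2b gave 206.3, 196.8, 185.0 and 203.9 CPM in WT and 212.3, 195.9, 199.0 and 202.3 in Cre. Cre replicate 1 was the highest and WT replicate 3 the lowest, and the other 6 libraries were mixed between them. For Tubb2b the log2 fold change was 0.03 (SE 0.04, 95% interval -0.06 to 0.13). Tubb2a, at 534.9 to 593.5 CPM in WT and 535.0 to 573.5 in Cre, had a log2 fold change of -0.05 (SE 0.04). The remaining 8 genes shared 0 of their windows with another gene's transcripts.

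Across the RefSeq promoter windows, 8 of the 10 genes could be matched. TTTGAA was found in 3 of them (Mki67, Sox11 and Top2a) and CCAAT in 6. The E-box CAGCTG, a sequence bound by neurogenic helix-loop-helix factors, was found in 2 (Sox4 and Sox11), beside 13.0% of all windows. The E-box CATCTG, which reads CAGATG on the other strand, and the E2F element GCGGGAA were found in 0 of the 8, beside 14.4% and 3.82% of all windows. Each motif was searched on both strands.

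The 10 genes were then compared with each other over the 8 libraries, on log2 CPM with group means subtracted. The permutation p of a pair used every order of the 8 libraries, not only orders within a group, so it is approximate. Of the 45 pairs, 0 had an adjusted permutation p under 0.05 and 4 had an unadjusted p under 0.05. Pearson's r was above 0 for 25 pairs, with a median of 0.04. Dcx and Mki67 had the highest r, 0.84, with a rho of 0.86 (permutation p = 0.00863 and 0.0107, adjusted 0.181 and 0.346). Without Cre replicates 1 and 4 the r was 0.70. It was 0.75 without Cre replicate 4 alone (permutation p = 0.0506) and 0.95 without Cre replicate 2. The rho of this pair was 0.61 without Cre replicate 3 or Cre replicate 4 (permutation p = 0.167).

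The other 3 pairs with a small p also involved Dcx, Igfbpl1, Mki67 or Nes. Igfbpl1 and Mki67 had an r of 0.81 and a rho of 0.83 (permutation p = 0.0121 and 0.0154, adjusted 0.181 and 0.346). Their r was 0.87 without Cre replicate 1 and WT replicate 1, and 0.96 without Cre replicate 2. It was 0.75 without Cre replicate 1 alone (permutation p = 0.0526). Their rho was 0.50 without Cre replicate 3 or Cre replicate 4 (permutation p = 0.267). Dcx and Igfbpl1 had an r of 0.83 and a rho of 0.67 (permutation p = 0.00905 and 0.0831, adjusted 0.181 and 0.850), which dropped to an r of 0.47 without Cre replicates 1 and 4 and to 0.48 without Cre replicate 1 alone. Dcx and Nes had an r of 0.72 and a rho of 0.62 (permutation p = 0.0441 and 0.115, adjusted 0.496 and 0.850), and an r of 0.90 without Cre replicates 1 and 4 but of 0.44 without Cre replicate 1 alone (permutation p = 0.318). None of these relations passed the adjustment. Sox4 and Sox11 had an r of 0.57 and a rho of 0.62 (permutation p = 0.143 and 0.115, adjusted 0.711 and 0.850), and an r of 0.41 without Cre replicate 4 and WT replicate 1.

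Cre replicate 1 was the highest of the 8 libraries for 4 of the 10 genes (Dcx, Igfbpl1, Nes and Tubb2b), Cre replicate 2 for 3 (Neurod1, Mki67 and Top2a), Cre replicate 4 for Sox11 and Eomes, and WT replicate 2 for Sox4. The summed level of the 10 genes was 307.7 to 327.0 CPM in WT and 317.6 to 350.5 CPM in Cre, with Tubb2b contributing most of it. On log2 CPM without group means subtracted, Dcx and Mki67 had an r of 0.77. On that measure 14182 other genes with a mean of at least 1 CPM were ranked by their r with Dcx over the 8 libraries. The 3 highest, picked from that number, were Phldb1 (r = 0.989), Gk5 (r = 0.984) and Ece2 (r = 0.981). This is a description of 8 libraries, in which Cre replicate 1 was also the highest for each of these 3 genes.

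Markers of glia and of the ventricle wall moved with the same library. The 12 microglia markers summed to 585.5 CPM in Cre replicate 1, beside 408.1 to 439.8 in WT and 443.0 to 456.4 in Cre replicates 2 to 4. The sum of the ependymal markers, of which 4 of 8 had enough counts to be tested, was 33.9 CPM there, beside 10.01 to 17.6 in WT and 7.501 to 16.7 in Cre replicates 2 to 4. Of the 8 ependymal markers, 0 were at 0 over the series, and Mia was the lowest with 6 counts. Cre replicate 1 was also the highest library for the sums of astrocyte (6237 CPM), oligodendrocyte (5253 CPM) and oligodendrocyte precursor markers (647.1 CPM). The 10 markers of olfactory-type interneuron neuroblasts summed to 165.9 to 178.1 CPM in WT and 148.8 to 175.7 in Cre, lowest in Cre replicate 1. That low sum rests on Etv1, at 83.3 CPM in Cre replicate 1. Without Etv1 the sum was 65.5 CPM there, within the 59.1 to 73.3 of WT, and WT replicate 1 was the lowest library. The part of these cell types in the levels of Dcx, Igfbpl1 and Nes was not tested.

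**Figure D3:**
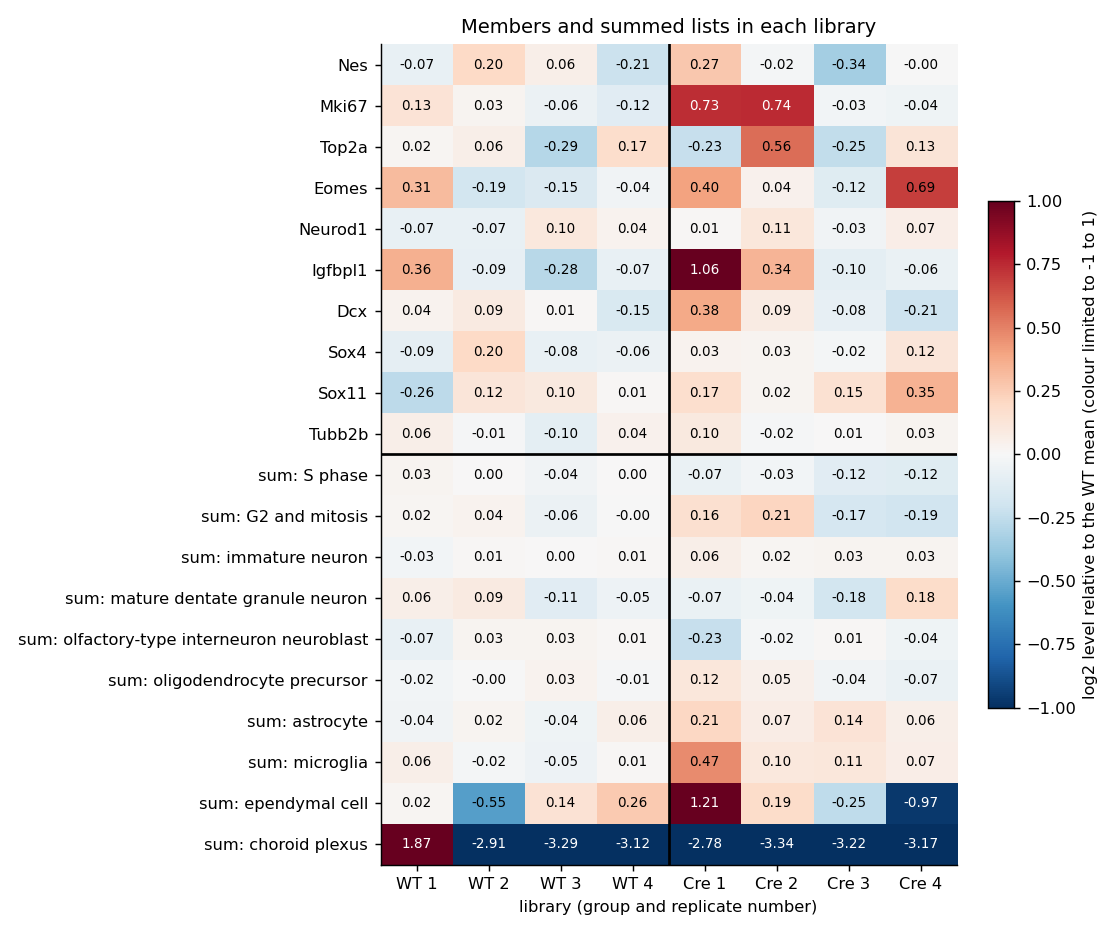
Log2 level of each of the 10 genes (upper block) and of the summed normalised CPM of gene and marker lists (lower block) in each library (columns), relative to the WT mean; the colour scale stops at -1 and 1. Cre replicate 1 has the highest values for Igfbpl1 (1.06) and for the ependymal sum (1.21), and WT replicate 1 has the highest choroid plexus sum (1.87).

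Mature granule neurons, the end point of the lineage, were measured by 12 markers, of which 0 passed the threshold. Their summed level was 706.7 to 811.1 CPM in WT and 671.5 to 865.0 CPM in Cre, with the highest and the lowest library both in Cre. The highest, Cre replicate 4, was also the highest for Sox11 and Eomes and the lowest for Dcx. Markers of CA1 and CA3 pyramidal neurons (11 tested, 0 past the threshold) summed to 1361 to 1472 CPM in WT and 1323 to 1391 in Cre.

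The wider programme was described with 5 lists that hold 119 genes, the 10 genes included. Of the 106 genes with enough counts to be tested, 0 rose and 1 fell at an adjusted p under 0.05, beside 0.0252% and 0.00631% of all genes. That 0.00631% is 1 gene, Mcm6, the same gene that fell here. The lists were chosen with its earlier call known, so this count cannot show an excess of lower genes in the lists. At an unadjusted p under 0.05 there were 3 higher and 2 lower genes, beside 2.05% and 1.45% of all genes. The estimate was above 0 for 61 of the 106 genes, with a median log2 fold change of 0.02.

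**Figure D4:**
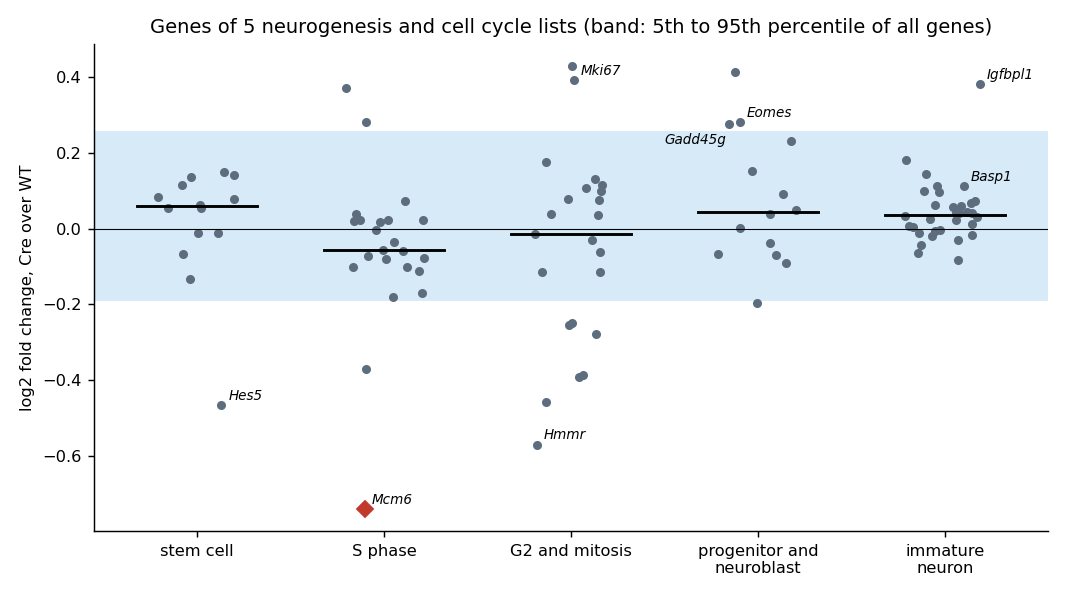
Log2 fold change, Cre over WT (y axis), of each tested gene in 5 lists (x axis); points are genes, spread sideways for legibility, black lines are list medians and the band spans the 5th to 95th percentile of all genes tested. Mcm6, the red diamond, is the only gene past the threshold, and the list medians lie between -0.06 and 0.06.

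In the stem cell list, 14 of 16 genes were tested, none passed the threshold in either direction, and the median log2 fold change was 0.06. Hes5, a Notch target that holds stem cells in an undifferentiated state, had the smallest p of the list. Its levels were 11.4, 10.5, 10.8 and 11.2 CPM in WT and 7.03, 8.61, 8.26 and 7.91 in Cre, and the groups did not overlap. The log2 fold change was -0.47 (SE 0.08, edgeR adjusted p = 0.261), while DESeq2 gave an adjusted p of 0.0381. Nes, from the same list, had a log2 fold change of -0.01. Fabp7, a lipid-binding protein of radial glia and astrocytes, had 0.14 (SE 0.06), and Id4, an inhibitor of neurogenic factors, had 0.15 (SE 0.07), neither past the threshold.

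The S phase list had 23 of 24 genes tested, of which 0 rose and 1 fell, with a median log2 fold change of -0.06. The gene that fell was Mcm6, a subunit of the helicase that unwinds DNA in replication. It gave 16.5, 17.9, 13.7 and 13.8 CPM in WT and 8.95, 9.60, 8.51 and 10.1 in Cre. Its log2 fold change was -0.74 (SE 0.10, edgeR adjusted p = 0.0176). Every Cre library lay below every WT library. Mcm6 no longer passed when WT replicate 1 (edgeR adjusted p = 0.0801) or Cre replicate 1 (0.0777), 2 (0.0883) or 3 (0.125) was left out, while the log2 fold change stayed between -0.79 and -0.66 under the alternatives tried. Pcna, the sliding clamp of DNA polymerase, had a log2 fold change of -0.07 (SE 0.06).

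The G2 and mitosis list, which holds Mki67 and Top2a, had 23 of 32 genes tested, of which 0 passed the threshold and 0 had an unadjusted p under 0.05. The median log2 fold change was -0.01, with 11 genes above 0 and 12 below. Cenpa, the histone of the centromere, had the smallest p at a log2 fold change of 0.43 (SE 0.22, edgeR unadjusted p = 0.0787). The summed level of the list was 29.98 to 32.03 CPM in WT and 27.3 to 36.1 CPM in Cre, where Cre replicates 1 and 2 lay above all WT libraries and Cre replicates 3 and 4 below them. Mki67, itself part of the sum, was high in the same 2 libraries.

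In the intermediate progenitor and neuroblast list, 14 of 15 genes were tested and 0 passed the threshold, with a median log2 fold change of 0.04. Gadd45g, a stress and differentiation response gene, had 0.28 (SE 0.09, edgeR unadjusted p = 0.011, adjusted p = 0.999), and Eomes had the same rounded value with a SE of 0.28. The summed level of the list was 370.0 to 405.9 CPM in WT and 367.2 to 405.4 in Cre.

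All 32 genes of the immature neuron list were tested, 0 passed the threshold, and 23 had a log2 fold change above 0, with a median of 0.04. Basp1, a membrane-bound protein of growth cones, had the smallest p of the list, with a log2 fold change of 0.11 (SE 0.04, edgeR unadjusted p = 0.00944, adjusted p = 0.999) and groups that did not overlap. Marcks, a related actin-regulating protein, also had 0.11 (SE 0.05), while Tubb3, the neuronal beta-tubulin, had -0.08 (SE 0.04). A summed level weights the genes of a list by abundance. Mean WT levels here were 662.1 CPM for Basp1 and 238.3 for Tubb3, beside 20.8 for Dcx and 3.07 for Igfbpl1. The sum therefore says little about Dcx or Igfbpl1. The summed level was 4023 to 4130 CPM in WT and 4151 to 4267 CPM in Cre, with every Cre library above every WT library. That separation rests on Basp1, since without it the sum was 3403 to 3473 CPM in WT and 3439 to 3548 in Cre, and the groups overlapped. The sums of astrocyte (5231 to 5610 CPM in WT, 5616 to 6237 in Cre) and microglia markers also did not overlap; without its most abundant gene, Slc1a2, the astrocyte sum overlapped (2340 to 2517 CPM in WT, 2502 to 2883 in Cre). No test was run on any sum.

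Library totals ran from 21339996 to 27826871 counts, and 3 counts, the limit that a count of 0 allows, stood for 0.107 to 0.142 CPM. Syt2, the gene the series is titled for, was higher in every Cre library (log2 fold change 2.31, edgeR adjusted p = 2.48e-09), and Camk2a was at 0.005. WT replicate 1 stood apart in choroid plexus markers, which summed to 1024 CPM there and to 27.6 to 40.7 in the other 7 libraries. With WT replicate 1 and Cre replicate 1 both left out, 0 of the 10 genes passed the threshold, and the log2 fold change was above 0 for 8 of them. None of the marker genes tested passed the threshold. Between the groups the remaining marker sums overlapped: oligodendrocytes 4076 to 4529 CPM in WT and 4093 to 5253 in Cre, oligodendrocyte precursors 587.2 to 611.7 and 569.3 to 647.1, Cajal-Retzius cells 121.1 to 136.8 and 127.6 to 136.9, endothelial cells 214.6 to 256.6 and 229.1 to 247.4, pericytes and smooth muscle 187.1 to 250.7 and 198.2 to 213.9, and meningeal fibroblasts 86.8 to 188.0 and 87.9 to 109.8.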

How the data were processed

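The deposited table holds whole-number counts per gene and library, not normalised, as the authors made them. Per the labels, poly(A) RNA was selected, libraries were directional, and paired reads of 150 bases were sequenced in a single lane. The tools named for GRCm38 were featureCounts, STAR 2.6.1d and edgeR 3.11, per the submitters' processing notes; the strand setting is not given in the sources used here. A second table deposited by the authors gives, for Cre against WT, a log2 fold change and a p-value per gene, which the labels do not describe as adjusted or not.

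The filter filterByExpr, with a minimum count of 10 and a minimum total of 15, retained 15859 genes with 99.9% of the counts of each library. Scaling used TMM factors. Cre was compared with WT by edgeR's quasi-likelihood test (edgeR 4.0.16, R 4.3.3, no covariate, 2-sided, Benjamini-Hochberg over all genes, threshold 0.05), with simulated data as a check of the script. Exact permutation tests for single genes were complete (70 arrangements) and used log2 CPM with a prior count of 2. Permutation tests of pairs used every order of the libraries across both groups after group means were subtracted, so their p-values are approximate. Alternatives were other scalings and filters, a robust dispersion, DESeq2 1.42.0, limma voom 3.58.1, the replicate number as a block, and each library left out. The genes, lists, markers and motifs were chosen with earlier results of these data known. Genes named from a list are among the 4 with the smallest p in it, beside all 10 genes of the set, Mcm6, Syt2, Camk2a, Tubb2a, Sox12 and the 3 genes most like Dcx; marker genes named are those with the highest or lowest level, and Cd3e and Ncr1 were picked after their values were seen. Some genes of the lists are counted but not reported by name here. No duplicate library was found. Positions and exon lengths are from GENCODE M21 (GRCm38). Intervals cover the spread between libraries, and limits from a count of 0 cover counting error only.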

Additional observations from a re-analysis of the deposited data

Results flagged for a closer look

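Groups of 4 libraries were screened for a highest or lowest value whose gap to its nearest neighbour was too large a share of the group's range by Dixon's 95% critical value. Of 60 groups, 5 met it, where chance gives about 1 in 20. Among the 10 genes it was met in 1 of 20 groups: Sox4 stood at 38.2 CPM in WT replicate 2, beside 31.2 to 31.9 in the other WT libraries. The choroid plexus sum was 1023.7 CPM in WT replicate 1, beside 28.7 to 37.4. In the same library the oligodendrocyte sum was lowest at 4076 CPM, beside 4452 to 4529, and the sum of olfactory-type neuroblast markers was lowest at 165.9 CPM, beside 176.3 to 178.1. The microglia sum was 585.5 CPM in Cre replicate 1, beside 443.0 to 456.4 in the other Cre libraries. These libraries were singled out by distance alone.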

How the results depend on the processing

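The count of the 10 genes past the threshold was 0 under all 17 alternatives (16 planned and 1, without WT replicate 1 and Cre replicate 1 together, chosen after seeing the data), and the lowest adjusted p of any of them was 0.891. Genes past the threshold over the whole table numbered 4 to 7, against 5. For 7 of the 10 genes the direction held under every alternative that gave a value. The 3 exceptions had estimates near 0: with single libraries left out, Dcx ran from -0.068 to 0.14, Top2a from -0.11 to 0.18 and Nes from -0.12 to 0.090, and Dcx was -0.056 with WT replicate 1 and Cre replicate 1 both left out. With single libraries left out, the other 7 ran from 0.10 to 0.23 (Sox11), 0.01 to 0.12 (Sox4), 0.06 to 0.52 (Igfbpl1), 0.02 to 0.08 (Neurod1), 0.12 to 0.41 (Eomes), 0.26 to 0.52 (Mki67) and 0.001 to 0.05 (Tubb2b). The number of genes of the 5 wider lists past the threshold, 1 in the comparison as reported, was 0 to 1 with single libraries left out, 0 without WT replicate 1 and Cre replicate 1 together, where fewer libraries were used, and 2 with DESeq2 (Mcm6 and Hes5). Over the alternatives the adjusted p of Mcm6 ran from 5.52e-07 to 0.228 and that of Hes5 from 0.0381 to 0.9998. A filter of 1 CPM in 4 libraries removed Eomes. No pair of the 10 genes passed the adjusted threshold in any of 10 alternatives for the correlations. Also chosen after seeing the data, leaving out Basp1 moved the Cre minus WT difference of the immature neuron sum from 97.4 to 44.2 CPM, and leaving out Etv1 moved that of the olfactory-type neuroblast sum from -7.98 to 0.53 CPM.

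Same-numbered WT and Cre libraries had correlations of their deviations, over all genes tested, of 0.20, -0.11, 0.02 and 0.02. These values do not settle whether the numbers pair the libraries. With the replicate number as a block, 6 genes of the whole table passed the threshold and 0 of the 10 genes, and Mcm6 was the 1 called gene of the wider lists. The block lowered the SE of Igfbpl1 from 0.25 to 0.15 (log2 fold change 0.35, edgeR unadjusted p = 0.0428, adjusted p = 0.999). It lowered that of Dcx from 0.11 to 0.08, while those of Neurod1 and Eomes rose slightly. Depth limits Eomes, Mki67 and Top2a most, at 11 to 55 counts per library.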
